A study of Mus musculus with 2 samples.

Results

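Open chromatin inside DNA masked as repeats, far from gene starts, was described in the ovary of aged mice. The regions were the DNase-sensitive sites found in both libraries on the autosomes, more than 2 kb from any start of a protein-coding gene and outside exons, in which 80% or more of the bases are written in lower case in the mm10 genome, the usual mark for repeats. This rule chose 249 members among 35303 distal sites and 64903 regions shared by both libraries on all chromosomes. Accessibility was measured by DNase-seq: nuclei are treated with DNase I, which cuts exposed DNA, and the ends are sequenced. Both libraries came from whole ovary of female B6CASTF1/J mice aged 18 to 20 months, first-generation hybrids of C57BL/6 and CAST, and form 1 group. They have separate biosample entries and share a donor entry, and the sources used here do not say whether the animals differed. With no second group, no test across samples was possible, and the members are described beside the 30507 distal sites with under 20% of their bases masked. Promoters of all 6 ovarian somatic markers examined (Foxl2, Nr5a1, Inha, Amh, Gata4 and Wt1) had a peak in both libraries. Of 5 markers of other cell types, the promoter of Actn2, a sarcomere gene, had a peak in both libraries, with a signal of 2.00 in replicate 1 and 2.29 in replicate 2. No peak was listed in both libraries at the promoters of Ptprc, Cd3e, Alb and Krt5.

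Much of the mouse genome descends from mobile elements. Short interspersed elements such as B1 and B2 are copied from RNA made by RNA polymerase III, and B2 elements are known to carry letters that bind CTCF, the protein that holds chromatin loops with cohesin. Long interspersed LINE-1 elements start with a promoter built of repeated units and encode a reverse transcriptase, and elements related to retroviruses start and end with long terminal repeats and are copied from a transfer RNA that pairs beside the first repeat. Cells keep most of these sequences closed with DNA methylation and repressive histone marks.

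The lower-case letters of the assembly used here do not name any repeat family. They covered 33.5% of the called autosomal bases in 11594195 runs with a median length of 29 bp, and the shortest was 19 bp, and 62.5% of the runs were 20 to 40 bp long. No source used here names the program that set them, so a member is a region dense in masked letters, the share of members need not equal the share of repeat elements, and its kind of repeat was read only from its own sequence. The median member was 93.5% masked, and 85 of the 249 were masked at every base. Just inside the threshold lay chr1:127946361-127946560, with signals of 0.969 and 1.19 in replicates 1 and 2, chr15:36479901-36480060 with 1.14 and 1.11, and chr3:71821141-71821400 with 1.17 and 1.63, each 80% masked. Just outside lay chr10:38690175-38690400, 79.6% masked, with 0.441 and 0.586, chr12:24943582-24943738, also 79.6% masked, with 0.689 and 0.578, and chr17:75883081-75883300, 79.5% masked, with 1.11 and 0.469.

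The sequences of members on which the results turn are printed here from the GRCm38.p6 assembly, 5′ to 3′, with the rank of each by its mean rank of signal over both libraries. In the members of rank 7, 25 and 34, capitals mark the letters CCA and AGNNGGC 2 bases apart, which are the inner part of the CTCF binding sequence. In that of rank 1 capitals mark TGCTGA, part of a MAF site, and in that of rank 17 the E-box CAGCTG.
Rank 7, near Slc25a25, chr2:32487201-32487400, reverse strand: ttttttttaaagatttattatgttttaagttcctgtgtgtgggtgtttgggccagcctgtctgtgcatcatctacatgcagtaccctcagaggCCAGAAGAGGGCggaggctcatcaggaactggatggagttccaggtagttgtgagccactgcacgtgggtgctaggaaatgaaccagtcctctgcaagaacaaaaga
Rank 25, near Bcdin3d, chr15:99469181-99469340, reverse strand: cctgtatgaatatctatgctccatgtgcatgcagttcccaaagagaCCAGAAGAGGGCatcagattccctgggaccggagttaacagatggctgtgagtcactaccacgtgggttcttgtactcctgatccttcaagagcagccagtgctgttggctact
Rank 34, near Ano6, chr15:95773601-95773780, forward strand: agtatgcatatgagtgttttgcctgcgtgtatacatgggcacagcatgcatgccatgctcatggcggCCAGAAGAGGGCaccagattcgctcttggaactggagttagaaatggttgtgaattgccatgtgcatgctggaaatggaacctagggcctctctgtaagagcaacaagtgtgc
Rank 1, intron of Pcdh9, chr14:93214881-93215100, forward strand: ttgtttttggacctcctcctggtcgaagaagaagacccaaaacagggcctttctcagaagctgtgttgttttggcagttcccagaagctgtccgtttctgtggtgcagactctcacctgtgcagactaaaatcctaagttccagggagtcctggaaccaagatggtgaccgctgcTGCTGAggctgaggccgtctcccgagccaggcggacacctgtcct
Rank 17, near A4galt, chr15:83268561-83268780, forward strand: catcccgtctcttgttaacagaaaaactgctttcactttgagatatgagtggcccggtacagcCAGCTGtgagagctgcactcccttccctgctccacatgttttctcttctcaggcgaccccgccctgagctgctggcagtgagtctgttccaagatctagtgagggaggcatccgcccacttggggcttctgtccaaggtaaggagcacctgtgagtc

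Members of rank 3 and 20 are shown because they are similar members of 1 sequence group, group 2, on different chromosomes. Capitals mark the stretches of 12 or more bases that are identical in both. In the member of rank 13 capitals mark stretches of 12 or more bases identical to the B1_Mus2 element that RefSeq annotates at chr7:103823699-103823836.
Rank 3, near Slfn14, chr11:83257321-83257540, forward strand: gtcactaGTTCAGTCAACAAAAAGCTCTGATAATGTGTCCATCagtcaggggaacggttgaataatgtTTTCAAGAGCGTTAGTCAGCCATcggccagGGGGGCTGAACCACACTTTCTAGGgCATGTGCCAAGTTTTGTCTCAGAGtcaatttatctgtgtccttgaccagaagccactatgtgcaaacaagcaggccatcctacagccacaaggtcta
Rank 20, near Nsd1, chr13:55187161-55187340, reverse strand: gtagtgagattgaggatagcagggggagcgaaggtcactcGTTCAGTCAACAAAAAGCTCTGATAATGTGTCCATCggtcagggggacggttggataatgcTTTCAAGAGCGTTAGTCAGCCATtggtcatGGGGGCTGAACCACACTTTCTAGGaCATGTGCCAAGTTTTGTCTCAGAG
Rank 13, in Sfi1, chr11:3138461-3138620, reverse strand: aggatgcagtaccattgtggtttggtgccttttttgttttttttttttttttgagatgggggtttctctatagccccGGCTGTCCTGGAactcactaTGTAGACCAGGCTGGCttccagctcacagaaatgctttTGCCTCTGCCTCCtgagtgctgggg

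The members of rank 6 and 8 hold a stretch like the site where the 3′ end of phenylalanine transfer RNA pairs to start the copying of a retrovirus, which is in capitals. The member of rank 9 lies in the array of 5S ribosomal RNA genes and is shown without capitals.
Rank 6, near Dusp6, chr10:99339390-99339516, forward strand: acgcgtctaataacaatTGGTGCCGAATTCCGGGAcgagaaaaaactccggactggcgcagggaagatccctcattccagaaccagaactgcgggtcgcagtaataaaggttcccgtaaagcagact
Rank 8, near Olfr330, chr11:58518961-58519180, forward strand: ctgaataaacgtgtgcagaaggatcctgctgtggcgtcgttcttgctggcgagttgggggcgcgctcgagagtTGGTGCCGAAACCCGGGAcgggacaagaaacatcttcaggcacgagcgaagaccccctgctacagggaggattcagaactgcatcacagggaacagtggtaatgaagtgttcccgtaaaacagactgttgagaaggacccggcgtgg
Rank 9, near Rhou, chr8:123617458-123617600, forward strand: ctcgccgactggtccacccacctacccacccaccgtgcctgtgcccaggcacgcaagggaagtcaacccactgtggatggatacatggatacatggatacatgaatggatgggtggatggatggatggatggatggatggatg

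Densely masked sites were a small part of the open distal genome. Members made up 0.705% of the distal sites (exact 95% binomial interval 0.621% to 0.798%), whereas 17.4% of the 10513647 windows of 200 bp that tile the same part of the autosomes were 80% or more masked, which is 24.7 times the share among open sites. The windows were not screened for letters that recur in the genome, and the part of read placement in this difference was not tested. No masked base at all was found in 16723 distal sites, which is 47.4%. A further 4547 sites, or 12.9%, were between 20% and 80% masked. The X chromosome, which the rule leaves out, had 11 sites 80% or more masked among 792 distal sites. Over the autosomes the share of distal sites that were members ran from 0.386% on chromosome 17 to 1.26% on chromosome 8, which held 24. Intervals given here cover counting error only.

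**Figure D1:**
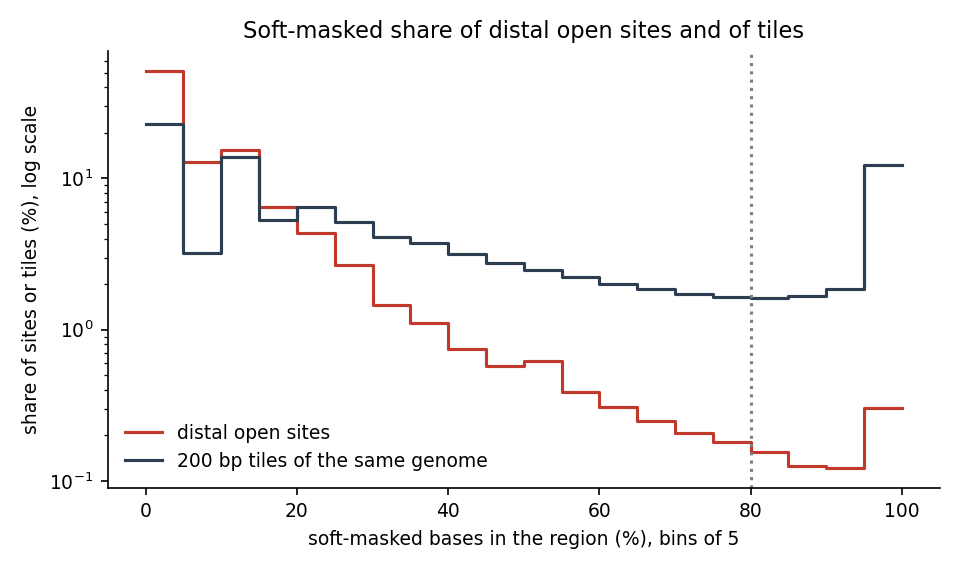
Share of distal open sites (red) and of 200 bp tiles of the same part of the genome (dark) by soft-masked percent in bins of 5, on a log scale, with the 80% threshold as a dotted line. Distal open sites are rarer than tiles in every bin above 20%, and both lines rise again in the bin from 95% to 100%, which holds 107 open sites.

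Masking at the centres is set by the rule and is given as a description. At the members' centres 96.8% were masked, 80.7% and 83.5% at 100 bp on either side, and about as many as in their wider surroundings from 500 bp outwards, with 51.0% and 53.01%. At 1500 bp the members still lay in more densely masked DNA, with 52.2% and 49.8% masked against 25.1% around the distal sites under 20% masked. At the centre of those sites, also fixed by the choice of class, 3.64% were masked.

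**Figure D2:**
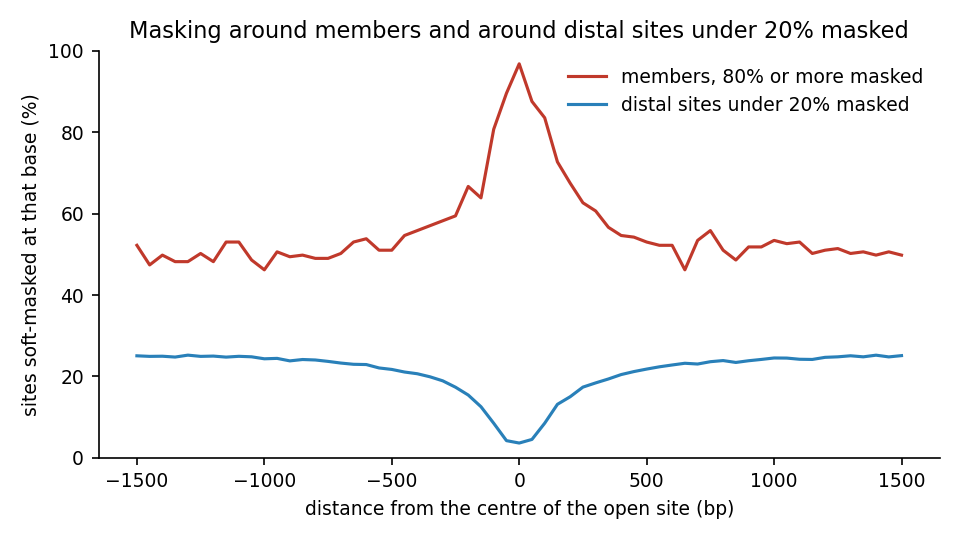
Percent of sites soft-masked at each distance from the site's centre, every 50 bp, for the 249 members (red) and the 30507 distal sites under 20% masked (blue). The red line peaks at 96.8% and levels out near 50%, and the blue line dips to 3.64% and levels out at 25.1%.

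The median signal of the members lay below that of other distal sites in both libraries. The median peak signal, which the authors scaled for depth, was 0.614 in replicate 1 and 0.586 in replicate 2, against 0.947 and 0.813 at sites under 20% masked. The mean of the log2 ratios of these medians was -0.55, with -0.63 in replicate 1 and -0.47 in replicate 2. The members' quartiles were 0.409 and 0.969 in replicate 1 and 0.453 and 0.891 in replicate 2, so the classes overlapped widely. Deposited signals were whole multiples of 0.0108 in replicate 1 and 0.00782 in replicate 2, and the median member stood at 57 and 75 such steps, which limits the precision of single values. The shorter peak lists of both libraries held 88 members, or 35.3% (29.4% to 41.6%), beside 54.5% of all distal sites. A footprint, a short stretch protected from cutting, was listed in both libraries for 139 members, or 55.8% (49.4% to 62.1%), beside 75.2% of all distal sites. Replicate 1 listed a footprint in 67.1% of the members and replicate 2 in 77.9%.

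Signals in the 2 libraries were set side by side at each member. After centring on the median of all distal sites, 222 members, or 89.2% (84.6% to 92.7%), lay within 2-fold between libraries, and 27 lay outside, beside 11.3% of all distal sites. Of the 27 members outside, 16 were higher in replicate 1 and 11 in replicate 2. Of the 16, 10 held the CTCF letters and 6 did not.

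A smaller share of members than of other distal sites lay in introns. Introns of protein-coding genes held 77 members, or 30.9% (25.2% to 37.1%), against 44.1% of the sites under 20% masked. The median distance to the nearest protein-coding start was 29.6 kb against 26.4 kb, and 57 members, or 22.9%, were over 100 kb away, against 18.1%. The members were 192 bp wide at the median, with 49.6% G and C, against 216 bp and 52%. The fixed lists of granulosa, theca, stroma, smooth muscle, endothelium, surface epithelium, immune, senescence, AP-1 and oocyte genes held 133 autosomal genes. Of these, 83 had a distal site in the gene or within 10 kb, with 205 sites summed over genes, and none had a member. Over all distal sites 0.705% were members, a share so low that 0 among 205 sites does not set these genes apart.

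How far a read can be placed depends on how often its letters recur. A median of 53.9% of a member's 36-base words occurred once in the genome, against 100% at sites under 20% masked. At least 90% of the words were unique in 51 members, or 20.5% (15.6% to 26.03%), against 98.4% of the other class, and none was unique in 24 members. Where more words were unique, replicate 1 had higher signals, with medians of 0.484, 0.549, 0.657 and 0.786 for the 33 members at 10% or less, the 82 up to 50%, the 83 up to 90% and the 51 at 90% or more. Replicate 2 showed no order of that kind, with 0.547, 0.637, 0.563 and 0.578. The letters bound by CTCF were in 0, 6, 9 and 23 of these members, and the medians without those members were 0.484, 0.538, 0.614 and 0.533 in replicate 1 and 0.547, 0.629, 0.594 and 0.555 in replicate 2. The highest median in replicate 1 was then no longer in the class with the most unique words, a split chosen after the values were seen. No source used here says how reads that match several places were treated, and the part of that treatment in these values was not tested. Beside itself, a member had a median of 22 copies in the genome with 90% or more identity over 80% or more of its length. There were 81 members without any such copy, 85 with 100 or more and 30 with 1000 or more, and the highest number was 46832. In all, 6 members (2.41%) had 50% or more of their bases in tandem copies of a unit of 1 to 6 bases, and no site under 20% masked had.

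The strongest members were of several kinds, and 8 of the first 10 are given here. First came chr14:93214881-93215100 in an intron of Pcdh9, a protocadherin gene of cell adhesion, with signals of 3.05 in replicate 1 and 4.44 in replicate 2 and 1808 other copies. The third, chr11:83257321-83257540, read 2.88 and 3.42 and lay 29.2 kb from Slfn14. The fifth, chr14:53935801-53936220, read 2.31 and 4.14, and the sixth, chr10:99339390-99339516, 73.7 kb from Dusp6, a phosphatase gene of the MAP kinase pathway, read 2.45 and 2.53. The seventh, chr2:32487201-32487400, read 4.70 and 1.78 and lay 35.8 kb from Slc25a25. The eighth, chr11:58518961-58519180, near the olfactory receptor gene Olfr330, read 1.95 and 2.62. The ninth, chr8:123617458-123617600, read 1.92 and 2.96, and the tenth, chr14:76936041-76936380, 99.7 kb from Lacc1, read 1.81 and 3.70.

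**Figure D3:**
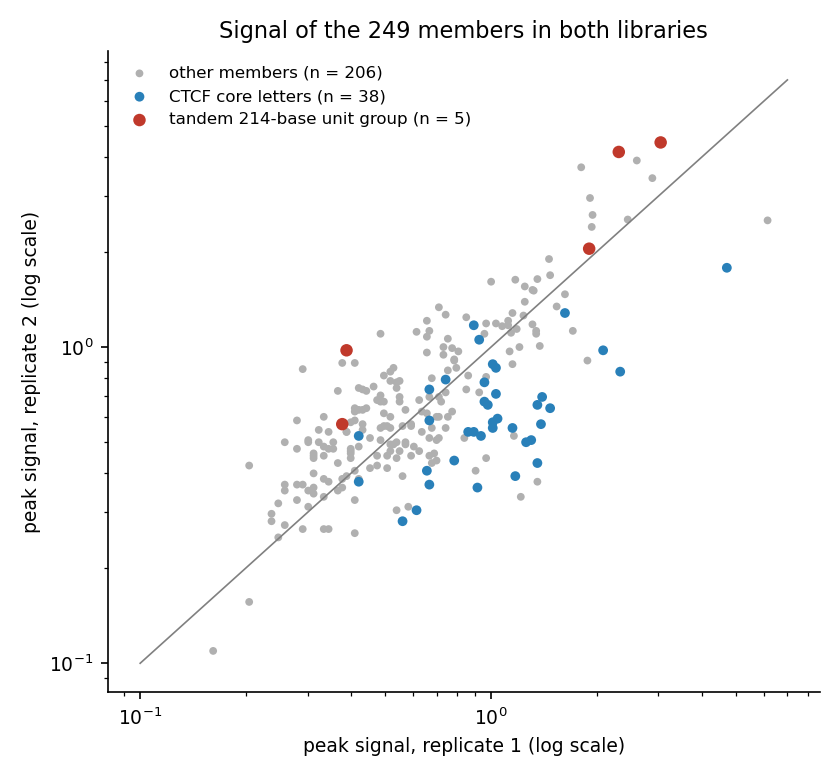
Peak signal of each of the 249 members in replicate 1 (x) and replicate 2 (y), both on log scales, with the line of equal values. Members with the CTCF core letters (blue, n = 38) lie mostly below the line, and the group with a tandem unit of 214 bases (red, n = 5) lies above it.

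Members fell into families by sequence. Aligning them with each other placed 185 members in 36 groups of 2 or more, linked by alignments of 60 bases or more with at least 70% identity that covered 50% or more of the shorter member, and left 64 alone. Groups were numbered by size, and 12 of them had 5 or more members, 124 members in all. The strongest member of group 1 was chr15:36479901-36480060, of group 2 chr11:83257321-83257540, of group 3 chr11:3138461-3138620, of group 4 chr8:103173961-103174200, of group 5 chr15:99469181-99469340 and of group 6 chr6:54606321-54606600.

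Groups 1 and 5 carried CTCF letters. Group 1 had 24 members on 13 chromosomes, with a median signal of 0.877 in replicate 1 (0.334 to 1.399) and 0.531 in replicate 2 (0.281 to 1.17), and 20 of the 24 were lower in replicate 2. The CTCF core letters were present in 17, of which 14 were lower in replicate 2, with a median log2 ratio of -0.73. Of the 7 without these letters 6 were lower too, with a median of -0.16. Group 5 had 11 members on 8 chromosomes, with a median of 1.15 (0.420 to 2.34) and 0.555 (0.360 to 0.977), all 11 were lower in replicate 2, and 10 held the core. In group 5 the words were 100% unique at the median and the members had no close copies at the median. Its strongest members, of rank 25 and 34, read 2.09 and 0.977, and 2.34 and 0.836.

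In all, 38 members held the core in the region, 1 match each and every match on masked bases, and 7 of them belonged to no group. The same 12 letters, CCAGAAGAGGGC, stood at 23 of the 38 matches. Windows of 40 bases around the core are printed from members of groups 1, 5, 3 and 14 and from a pair without a group, the strongest with the core in each, to show what surrounds it, with the core in capitals.
Group 1, rank 45, chr8:95314869-95314908, forward strand: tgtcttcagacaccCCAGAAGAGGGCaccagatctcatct
Group 1, rank 49, chr2:158379935-158379974, reverse strand: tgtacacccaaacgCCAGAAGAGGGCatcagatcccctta
Group 1, rank 50, chr5:135357718-135357757, forward strand: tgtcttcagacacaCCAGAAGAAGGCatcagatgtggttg
Group 1, rank 52, chr15:98710612-98710651, reverse strand: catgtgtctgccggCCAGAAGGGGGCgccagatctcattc
Group 1, rank 70, chr19:3724952-3724991, forward strand: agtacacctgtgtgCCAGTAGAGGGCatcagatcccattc
Group 5, rank 25, chr15:99469269-99469308, reverse strand: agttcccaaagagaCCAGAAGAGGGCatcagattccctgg
Group 5, rank 34, chr15:95773654-95773693, forward strand: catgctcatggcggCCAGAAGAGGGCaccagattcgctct
Group 5, rank 53, chr3:146181152-146181191, forward strand: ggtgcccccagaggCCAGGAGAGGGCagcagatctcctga
Group 5, rank 55, chr9:53594916-53594955, forward strand: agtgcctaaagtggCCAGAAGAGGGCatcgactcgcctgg
No group, rank 7, chr2:32487282-32487321, reverse strand: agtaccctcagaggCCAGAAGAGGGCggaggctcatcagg
No group, rank 54, chr19:57161414-57161453, forward strand: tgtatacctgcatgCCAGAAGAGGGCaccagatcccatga
Group 3, rank 18, chr9:21869456-21869495, forward strand: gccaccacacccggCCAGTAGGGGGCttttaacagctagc
Group 14, rank 63, chr16:31003763-31003802, reverse strand: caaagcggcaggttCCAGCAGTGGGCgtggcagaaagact

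The letters of the core were set beside those of the core elsewhere. Counted from the first C, the fifth base was A at 31 of the 38 matches, or 81.6%, and C or T at 5. At the 3664 matches in sites under 20% masked it was A at 15.9% and C or T at 74.7%, and the most frequent letters there, CCAGCAGAGGGC, made up 7.21%. The longer CTCF consensus that was searched first asks for C or T at that base. It matched 6.02% of the sites under 20% masked and no member, for which a count of 0 of 249 allows up to 1.47% (exact 95% upper bound). The shorter core was added after the members' sequences had been read.

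Footprints were set beside the core. In replicate 1, 28 of the 38 matches, or 73.7%, were centred in a footprint, and in replicate 2 it was 19, or 50%. A footprint of both libraries covered 18 of the 38, and footprints covered 8.35% and 10.4% of the members' bases. At sites under 20% masked the shares were 79.1% and 65.3%. With A at the fifth base they were 74.9% and 58.4% there.

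Most sites with the core were lower in replicate 2, both among the members and among the sites under 20% masked. The members with the core had median signals of 0.996 in replicate 1 and 0.582 in replicate 2, a median log2 ratio of -0.83, and 33 of 38 were lower in replicate 2 (86.8%, 71.9% to 95.6%). The 211 members without it had 0.538 and 0.602, a median log2 ratio of 0.20, and 35.5% were lower in replicate 2. At sites under 20% masked the medians were 1.59 and 0.836 with the core, a log2 ratio of -0.88, and 90.6% were lower, against 0.883 and 0.813, -0.02 and 51.6% without it. The difference between the libraries at these letters was therefore found in both classes of sites. Of the 5 members with the core that were not lower in replicate 2, 3 belonged to group 1 (rank 45, 50 and 88) and the other 2 to group 14. Rank 45, with the most frequent letters, read 0.893 and 1.17, a log2 ratio of 0.39. Lower signal in replicate 2 was not confined to members with the core, since 75 of the 211 members without it were lower too.

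**Figure D4:**
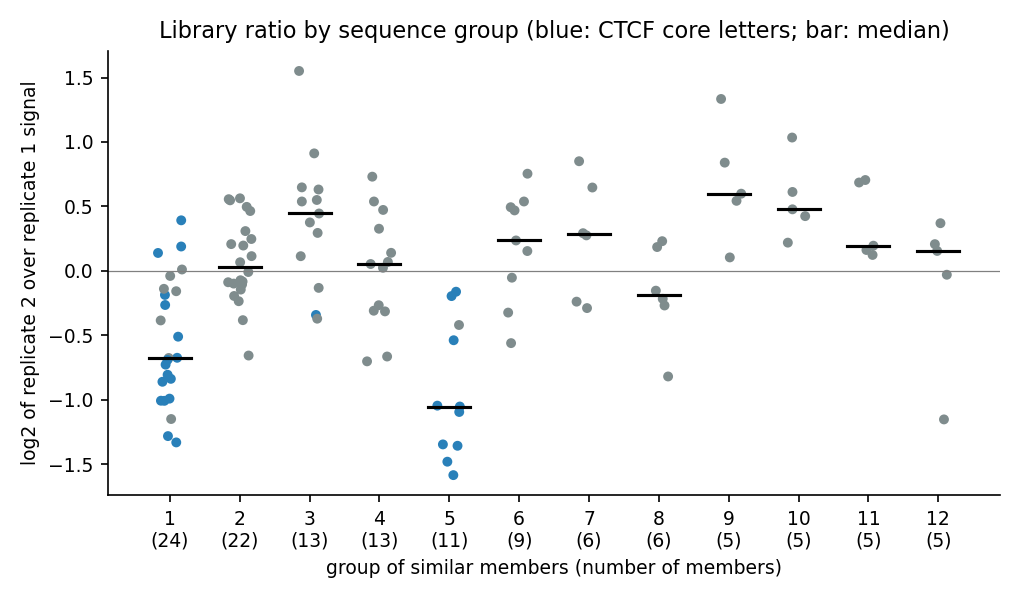
Log2 of the replicate 2 signal over the replicate 1 signal for each member of groups 1 to 12, those with 5 or more members, with the number of members in brackets, the group median as a bar and members with the CTCF core in blue. Groups 1 and 5 have medians of -0.68 and -1.05, and the other 10 groups shown lie between -0.19 and 0.60.

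Groups 2 and 7 lay side by side in the genome. Group 2 had 22 members on 13 chromosomes with a median signal of 0.716 in replicate 1 (0.312 to 2.88) and 0.778 in replicate 2 (0.406 to 3.42), and 11 were higher in each library. A median member had 114.5 other copies, and 1 of the 22 lay in an intron. Group 7 had 6 members with medians of 0.614 (0.334 to 1.36) and 0.602 (0.539 to 1.64), and all 6 held the E-box CAGCTG. In the genome, 129 of the 140 copies of group 7 (92.1%) had a copy of group 2 within 3 kb, and 130 of the 200 copies of group 2 (65.0%) had one of group 7. At 4 places both were members, with a gap of 785 to 1260 bp between them. Near A4galt the member of group 7 at chr15:83268561-83268780 read 1.36 and 1.64 and that of group 2 at chr15:83270041-83270380 read 1.12 and 1.17. The other pairs lay near Neu3, Olfr693 and Rbm12b1, and in each the member of group 2 was the stronger in both libraries.

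Copies of each element were set against the regions shared by both libraries. The open copies include the members, which the rule chose for being open, so the shares are in part set by the rule. Of the 200 copies of group 2, 31 (15.5%) overlapped a shared region anywhere in the genome, and of the 140 of group 7, 18 (12.9%) did. Group 10, with 95 copies, had 19 open (20.0%), and group 4, with 155, had 14 (9.03%); these groups have 5 and 13 members. Group 3 had 13 of 57 (22.8%) and group 5, whose close copies are its 11 members, 11 of 11 (100%). A median member of either group had 0 other close copies, so these are not shares of a whole repeat family. Groups with over 1000 copies had shares under 1%, such as 4 of 2001 (0.200%) in group 9, 7 of 2603 (0.269%) in group 12 and 4 of 1271 (0.315%) in group 16. In groups 3, 5 and 9, with 13, 11 and 5 members, the open copies were no more than the members. Their counts of open copies are therefore set by the rule. Groups 2, 7, 12 and 16 have 22, 6, 5 and 3 members, fewer than their open copies. An open copy without unique words cannot be told apart from a closed one if reads that match several places were left out. If such reads were kept, the signal listed at a member can stem from other copies, which was not tested. No 36-base word was unique in 24 members, those of rank 6 and 9 among them.

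Group 3 resembled B1. It had 13 members on 8 chromosomes, and 11 of them aligned to the B1_Mus2 element of RefSeq, as did 3 other members, with a median identity of 80.4%. Its median signals were 0.657 in replicate 1 (0.258 to 1.63) and 0.852 in replicate 2 (0.352 to 1.90), and 10 of 13 were higher in replicate 2. The strongest, in Sfi1, read 1.46 and 1.90. The B box, the inner promoter letters GTTCNANNC of RNA polymerase III genes, matched 6 of the 13. The NR5A variant CAAGGCCA, close to the binding letters of the steroidogenic factor NR5A1, matched 4 of them, and CAAGGTCA matched 2. In footprints lay 0 of the 4 variant matches in replicate 1 and 1 in replicate 2. Of the 2 CAAGGTCA matches, 0 and 2 did. In 200 bp windows, the variant matched 6.83% of all members and 6.81% of the sites under 20% masked. It matched 2.23% of the tiles that were 80% or more masked.

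Group 9 held the strongest member. Its 5 members, 4 on chromosome 14 and 1 on chromosome 8, read 3.05, 2.31, 1.91, 0.388 and 0.377 in replicate 1 and 4.44, 4.14, 2.05, 0.977 and 0.571 in replicate 2, higher in replicate 2 in all 5. Among shifts of 100 to 399 bases, 214 gave the most equal letters in the members with 1000 bp on either side, in all 5, and most around the member in Pcdh9, where 60.3% of the bases were equal to those 214 bases away, against 37.9% to 43.7% around the others. The shift is the best of those tried, and its excess over other shifts was not tested. Within 8 kb of each lay a reading frame of 965 to 1300 codons without a stop codon. The members of rank 5 and 12 are neighbours within chr14:53935401-53936220 and share 1 frame of 965 codons, so the 5 members are not 5 separate counts. Beside the member in Pcdh9 it ran over 1300 codons on the reverse strand at chr14:93209710-93213609. A repeated unit followed by such a frame is the known build of LINE-1 elements that begin with repeated monomers. Of the 5 members, 4 held the MAF sequence TGCTGA, 3 the SP/KLF sequence GGGCGGG and 2 the YY1 letters AAGATGGC. None of the 3 matches to the YY1 letters lay in a footprint of either library. YY1 is a zinc finger factor known to bind the start of LINE-1 elements.

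Groups 4, 6, 8, 10, 11 and 12 held no CTCF core. Group 4 had 13 members on 9 chromosomes and was among the weakest, with medians of 0.409 in replicate 1 (0.237 to 0.969) and 0.485 in replicate 2 (0.258 to 0.805), and 8 of 13 were higher in replicate 2. Group 6 had 9 members with medians of 0.398 (0.161 to 1.18) and 0.500 (0.109 to 1.14), and its strongest lay in Plekha8. Group 8 had 6 members with medians of 0.619 (0.280 to 1.31) and 0.582 (0.305 to 1.18), and 4 of the 6 were lower in replicate 2. In groups 10 and 11 replicate 2 was the higher library for each of the 5 members. Group 10, led by the member of rank 10, had medians of 0.786 (0.355 to 1.81) and 0.914 (0.477 to 3.70). Group 11 had 0.527 (0.344 to 1.47) and 0.860 (0.375 to 1.69). Group 12 had 5 members with medians of 0.732 (0.420 to 1.15) and 0.696 (0.406 to 1.28), led by a site 5.09 kb from the start of Bmf, a gene of the BCL2 family that promotes cell death. All 5 had a footprint in both libraries, whereas 2 of the 9 members of group 6 did.

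Stretches like the primer site of a retrovirus occurred in 5 members. They were sought as TGG with the reverse complement of the last 15 bases of 403 RefSeq transfer RNA genes, which gave 124 sequences. All 5 were nearest to the site of phenylalanine transfer RNA, the primer of the mouse IAP elements. The member of rank 8 held it without mismatch, that of rank 235, with signals of 0.301 and 0.352, with 1 mismatch, and those of rank 6, 19 and 196, which make up group 16, with 2. With up to 2 mismatches to any of the 124 sequences, 2.01% of the members and 0.462% of the sites under 20% masked held such a stretch, and with 1 it was 0.803% and 0.0361%. Group 16 read 2.45, 1.32 and 0.398 in replicate 1 and 2.53, 1.51 and 0.477 in replicate 2, and its members had 820 to 1203 other copies.

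Some members were neighbours. There were 29 members in 13 runs with gaps of at most 5 kb. The longest run held 5 members at chr4:143985261-143988420, 5.95 kb or more from the start of Pramef17. In order along the chromosome they read 0.710, 0.538, 0.549, 1.38 and 1.32 in replicate 1 and 0.516, 0.774, 0.782, 1.01 and 1.51 in replicate 2, and each had 1037 to 1857 other copies. The last of them, of rank 19, carried the primer-like stretch.

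The array of 5S ribosomal RNA genes on chromosome 8 had 4 members in it or within 2 kb. The array held 51 annotated genes between chr8:123538786-123623745, with a median spacing of 1698 bp, and 3 shared regions. The members lay 395 to 886 bp from the nearest 5S gene and read 0.775, 0.258, 0.495 and 1.92 in replicate 1 and 0.993, 0.274, 0.617 and 2.96 in replicate 2, all 4 higher in replicate 2.

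Short binding sequences were counted in 200 bp windows on both strands without mismatch. Of the 37 sequences searched from the start, 2 matched 20 or more members. The MAF sequence TGCTGA matched 59 members, or 23.7% (18.6% to 29.5%), against 20.8% of the sites under 20% masked and 12.5% of the tiles that were 80% or more masked. The E-box CAGCTG, read by basic helix-loop-helix factors, matched 28 members, or 11.2% (7.60% to 15.8%), against 21.8% and 4.35%, and it stood in 7 of the 9 members of group 6, in all 6 of group 7 and in all 6 of group 8. The B box, added later like the CTCF core, matched 31 members, or 12.4% (8.62% to 17.2%), against 6.58% and 11.8%. The CTCF core matched 39 windows, which can reach beyond the member, or 15.7% (11.4% to 20.8%), against 11.4% and 1.76%.

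Other sequences are given although they matched fewer than 20 members, and they were chosen after their values were seen. AP-1 letters, bound by FOS and JUN, matched 4.02% of the members (1.94% to 7.26%) against 11.1% of the sites under 20% masked and 1.05% of the masked tiles. The NR5A sequence CAAGGTCA matched 4.82% (2.51% to 8.27%) against 6.65% and 0.442%, and the GATA sequence AGATAAG 5.22% (2.81% to 8.76%) against 5.39% and 2.39%. Both NR5A1 and GATA4 are known regulators of ovarian somatic cells. The SP/KLF sequence GGGCGGG matched 6.43% (3.72% to 10.2%) against 5.08% and 0.827%. YY1 letters matched 3.21% (1.397% to 6.23%) against 1.09% and 4.92%. For AP-1 and the E-box the members' intervals lay below the shares at other open sites, and for YY1 and the B box above them. For the MAF, CTCF core, NR5A, GATA and SP/KLF sequences those shares lay within the intervals. The shares in masked tiles lay within the members' intervals for YY1 and the B box and below them for the MAF, E-box, CTCF core, AP-1, NR5A, GATA and SP/KLF sequences. They lay above them for the POU sequence ATGCAAAT, with 3.07% of the masked tiles and 0% of the members (upper bound 1.47%). The same held for the SOX sequence ACAATGG, with 5.84% against 2.81% (1.14% to 5.71%). Members of a group share letters, so their matches are not separate counts.

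**Figure D5:**
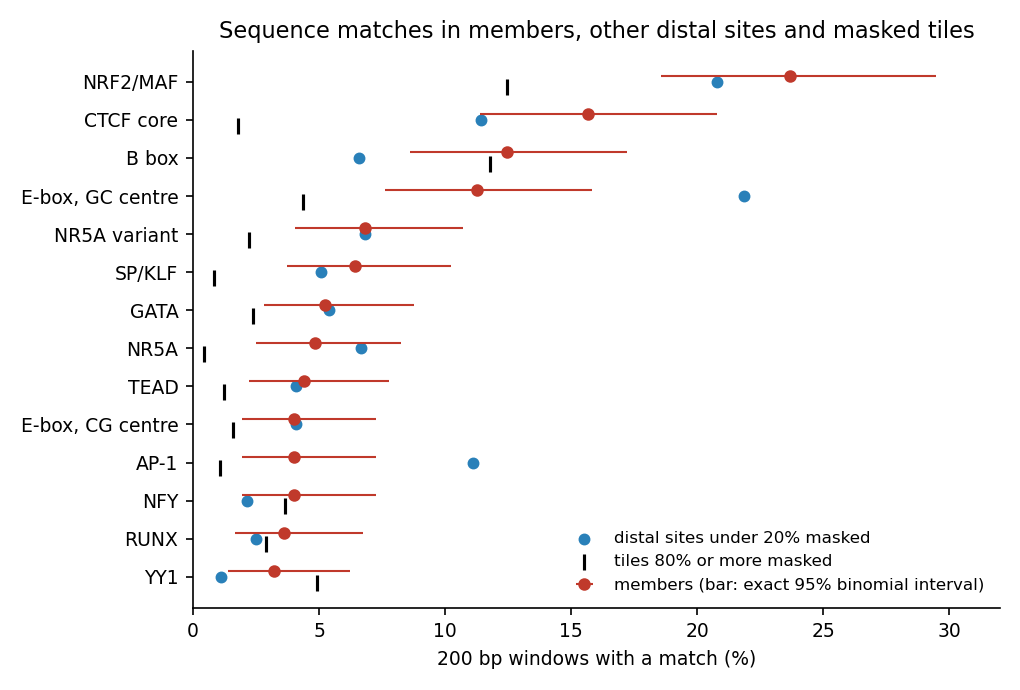
Share of 200 bp windows with a match, for each sequence found in 8 or more members, in the members (red, with the exact 95% binomial interval), in the distal sites under 20% masked (blue) and in tiles 80% or more masked (black bars). The members' points lie to the right of the tiles for most sequences, and the blue points lie to the right of the members' intervals for AP-1 and for the E-box with a GC centre.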

How the data were processed

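The deposited DNase-seq lists of 2 ovary libraries, which make up 1 group, were used. Per the file headers and the samples' text files, every library has a longer and a shorter list of narrow peaks, footprints and false discovery rates of the cut rate, on mm10 and without pooling. Aligner, callers, read length and the treatment of CAST alleles and of reads with several matches: not given in the sources used here. Peak strength is a signal, scaled by the authors to a depth that is not stated. The deposited p-value labels of the footprints are constant at 0.01, their kind is not stated, and they were used only to find footprints; the deposited false discovery rates, a p-value scale listed below 0.05, were not used.

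Peaks of the longer lists (95898 and 83982) sharing 1 bp or more were merged, and a region's signal was that of its strongest peak in each library. Distal regions were over 2 kb from starts of all transcripts of protein-coding genes and outside exons of any gene in GENCODE M21. Masked letters came from the RefSeq copy of GRCm38.p6. Tandem runs were at least 12 bp. Members were aligned to each other with BLAST 2.17.0 (70% identity, 60 bases, 50% of the shorter member) and to the genome (90% identity, 80% of the member). Regions were handled with pandas 2.3.3 and NumPy 2.4.6 in Python 3.11.15, intervals came from SciPy 1.17.1 and plots from Matplotlib 3.10.9. The word counting, overlap and sequence search were tested on simulated data. Intervals are exact (Clopper-Pearson).

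The members, lists and sequences were chosen with earlier results of these data known. Grouping and copy thresholds, the CTCF core, the B box, primer sites, reading frames and the splits by CTCF core were chosen after the data were seen. Regions named are the 10 strongest (2 are not reported here), the strongest of the 6 largest groups, the strongest near each gene list, of which there was none, and 3 on either side of the threshold. Sequences named by rule were those in 20 or more members. The rule also asked for the sequences with the highest share of matches inside footprints, and that list is not given here. The rest were chosen after their values were seen.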

Additional observations from a re-analysis of the deposited data

How the results depend on the processing

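No paired analysis was possible because both libraries belong to 1 group. With 50% or more masked the rule gave 939 members, 2.66% of the distal sites. Their log2 signal ratio to sites under 20% masked was -0.41, 65.1% had a footprint in both libraries, 51.9% had 90% or more unique words, 0.745% were mostly tandem units and 39.0% were intronic. With 95% or more masked there were 107 members, 0.303% of the distal sites, with a signal ratio of -0.68 and 10.3% with mostly unique words. The shorter lists gave 97 members, 0.502% of their distal sites, with a footprint in both libraries in 80.4%, mostly unique words in 13.4% and 24.7% in introns. Words of 24 and 50 bases were mostly unique in 2.41% and 38.6% of the members.

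Leaving out 1 library each, the signal ratio ran from -0.63 to -0.47, the share with a footprint in the remaining library from 67.1% to 77.9% and the share in the remaining shorter list from 54.6% to 56.2%; these shares ask for 1 library instead of both and so cannot be lower. A reciprocal overlap of 50% (206 members), exons of protein-coding genes alone (253) and, chosen after seeing the data, starts of protein-coding transcripts alone (257) moved no value out of its interval or, for the count and signal ratio, beyond 1.5 times or the spread between libraries. The signal ratio was negative under every setting, and the counts and shares have no sign to change. Other thresholds for grouping, also chosen after seeing the data, placed 162 to 181 members in 34 to 37 groups, with 22 to 24 in the largest. The depth of the libraries is not given, so only signal steps describe the precision. The membership itself depends on a mask whose program is not given, and another mask of the same genome was not tried.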
